A study of Mus musculus with 12 samples.

Results

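The 10 genes described here encode the sestrins and other proteins set around mTORC1, the growth-promoting kinase complex of the lysosome: Sesn1, Sesn2, Sesn3, Ddit4, Eif4ebp1, Eif4ebp2, Rragd, Flcn, Mtor and Rptor. They were taken by symbol from the 37583 gene identifiers of the count tables, and all 10 were found. Of these, 9 passed the filter on low counts and were among the 11819 genes tested, and Rragd did not pass it. The RNA came from 12 single-cell clones of mouse granulocyte-monocyte progenitors (GMPs), 6 wildtype and 6 Taz knockout. Every clone was derived from C57BL/6 fetal liver at embryonic day 15.5 and had been immortalized with a retrovirus for ER-Hoxb8, a fusion of the estrogen receptor with Hoxb8 that holds progenitors in growth while estradiol is present. The medium of all 12 held 0.5 µM beta-estradiol and stem cell factor equal to about 50 ng/ml, so both genotypes had the fusion, the hormone and the factor. Taz encodes Tafazzin, the acyltransferase that remodels cardiolipin in mitochondria. Each clone is a line grown from 1 cell, and its title holds a number that the labels do not explain: 1 or 2 for wildtype, 3 or 4 for knockout, with 3 clones each. Clones that share a number may share an embryo or a parent line. If so, p-values over 12 clones are too small.

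mTORC1 switches on protein synthesis when amino acids and growth factors are plentiful. Amino acids act through the Rag GTPases, which bring the complex to the lysosome, and sestrins oppose this by binding GATOR2. Growth factors act through the TSC complex and the GTPase Rheb, and REDD1, the product of Ddit4, favours TSC. The 4E-BPs, made from Eif4ebp1 and Eif4ebp2, hold back the cap-binding factor eIF4E until mTORC1 phosphorylates them. Folliculin, the product of Flcn, acts on the RagC and RagD GTPases, and Rragd encodes RagD. Mtor encodes the kinase and Rptor its substrate-recruiting partner Raptor, so Mtor, Rptor and Rragd belong to the machinery itself rather than to its restraints. Only RNA was measured here, neither protein nor phosphorylation. In bulk RNA, fewer cells of a type and less RNA per cell cannot be told apart.

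The libraries held 18970252 to 27431544 counts in genes, so that 3 counts, taken as the detection floor, were worth 0.109 to 0.158 CPM (counts scaled to library size, here with TMM, the trimmed mean of M-values). Taz itself ran from 37.1 to 43.9 CPM in wildtype and from 2.21 to 4.08 CPM in knockout clones, without overlap. The 14 GMP markers were all above the filter, none was called changed, and their summed level spanned 14350 to 23220 CPM in wildtype and 13270 to 21080 CPM in knockout clones. Much of the sum was Mpo, at a mean of 9998 CPM in wildtype and 9811 CPM in knockout clones. The median log2 difference of the list was -0.04. Elane (-2.04), Cebpe (-1.30) and Prtn3 (-0.68) had lower means in knockout clones, with wide intervals, and Fcgr3 (0.27) a higher one. The 12 mature neutrophil markers summed to 1550 CPM in wildtype clone 2D and to at most 146.4 CPM in any other clone, and 1 of 7 tested was lower (Cxcr2). The 6 fetal hepatocyte markers summed to 149 CPM in knockout clone 3G, with Alb at 122.5 CPM, and to at most 1.954 CPM elsewhere, and 1 of the 6 was at 0 in every clone. Summed pre-B cell markers were 32.8 to 85.9 CPM in wildtype and 6.08 to 28.6 CPM in knockout clones, and 2 of 5 tested were lower (Cd79b and Igll1); their part in the results was not tested. Sums for the other lists overlapped between genotypes: 552 to 1186 against 980 to 1813 CPM for monocyte, 1183 to 4259 against 2224 to 5046 CPM for mast cell and basophil, and 14.6 to 73.2 against 12.2 to 35.3 CPM for erythroid markers, with none called in these lists. With clones 2D and 3G both left out, the same 3 genes of the set were called, as given below.

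The restraints higher in the knockout clones were 3: the sestrin Sesn2, the REDD1 gene Ddit4 and the 4E-BP gene Eif4ebp1. The other 6 tested genes, among them Mtor, Rptor and the paralogs Sesn1, Sesn3 and Eif4ebp2, were not called. Called here means an adjusted p under 0.05 in edgeR's quasi-likelihood test, with Benjamini-Hochberg adjustment over all 11819 genes tested. The 3 higher calls among 9 tested genes stand beside 3.99% of all tested genes called higher and 7.94% called in either direction. The set was chosen with earlier results of these data known, so such shares are given here and below as a description. No gene of the set was called lower (beside 3.94% of all genes), none had a lower level at an unadjusted p under 0.05, and DESeq2 called none lower either. The median log2 fold change of the 9 genes was 0.02, against -0.01 over all genes tested.

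**Figure D1:**
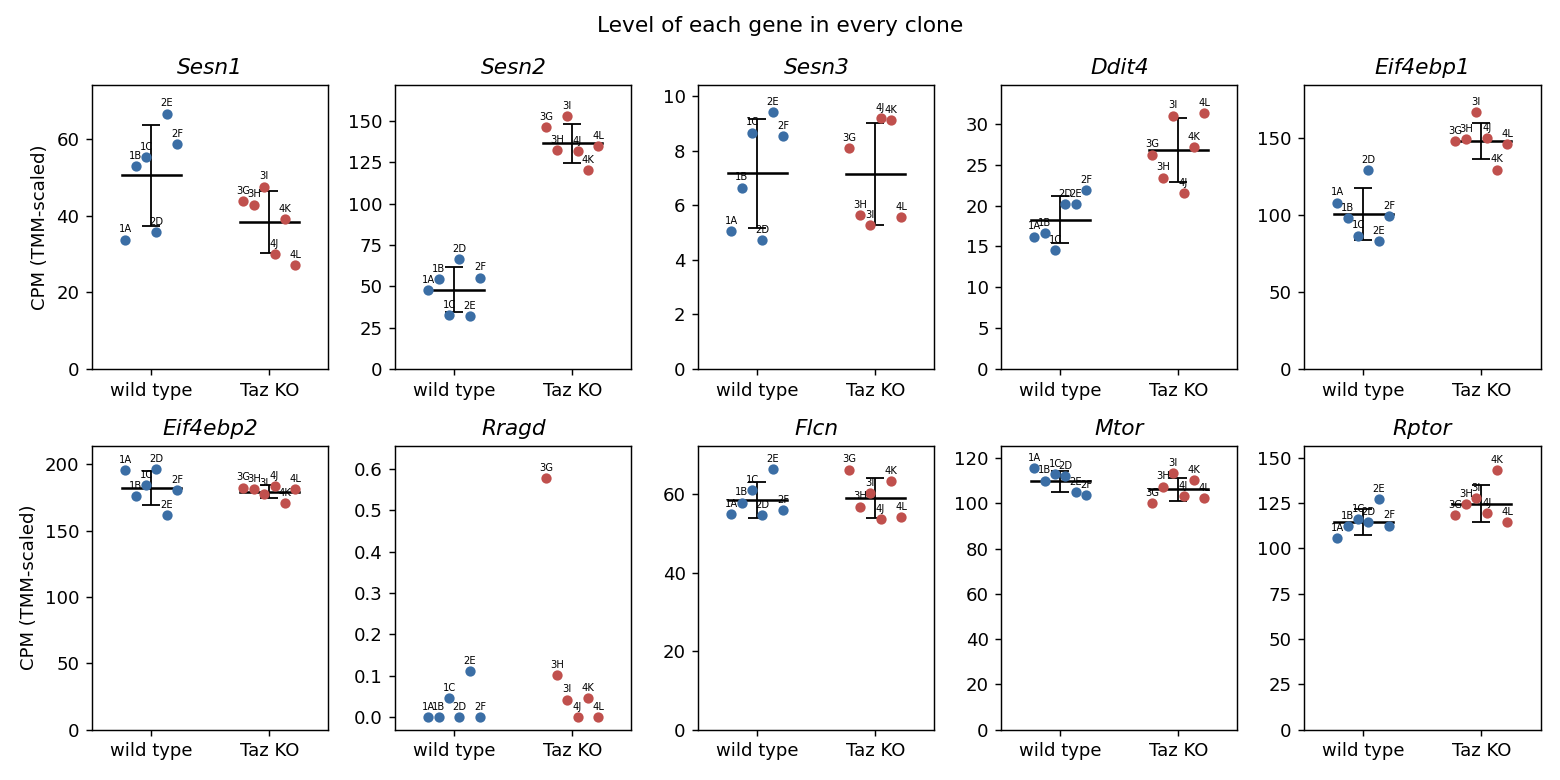
Level of the 10 genes in each of the 12 clones, in TMM-scaled CPM on linear axes. Points are clones with their titles, lines are means and bars are the SD over 6 clones, both left out for Rragd. Sesn2 and Eif4ebp1 are the 2 panels in which no knockout clone reaches down to the wildtype range.

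Among the sestrins, Sesn2 (ENSMUSG00000028893, chromosome 4) encodes a leucine-binding member of the family. Its level in wildtype clones was 47.9 CPM in 1A, 54.3 in 1B, 32.5 in 1C, 66.2 in 2D, 31.7 in 2E and 55.2 in 2F. In knockout clones it was 146.5 CPM in 3G, 132.4 in 3H, 153.0 in 3I, 131.6 in 4J, 120.1 in 4K and 135.0 in 4L. Every knockout clone was above every wildtype clone, and the wildtype clones spread over a 2-fold range while the knockout clones lay close together. The means were 48.0 ± 13.6 and 136.4 ± 11.7 CPM (SD, n = 6 each), a 2.84-fold difference. On the log2 scale the change was 1.51 (SE 0.17, 95% interval 1.14 to 1.88, edgeR adjusted p = 0.000503). By p-value Sesn2 stood at rank 29 of 11819 genes, and by size of change at rank 179.

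Sesn1 (ENSMUSG00000038332, chromosome 10), a sestrin known as a p53 target, was not called. Wildtype levels were 33.8 CPM in 1A, 53.0 in 1B, 55.3 in 1C, 35.8 in 2D, 66.8 in 2E and 58.9 in 2F. Knockout levels were 43.9 CPM in 3G, 42.9 in 3H, 47.7 in 3I, 30.0 in 4J, 39.1 in 4K and 27.2 in 4L. The ranges overlapped, with 1A and 2D low among wildtype clones and only 4J and 4L below the lowest wildtype value. The means were 50.6 ± 13.1 and 38.5 ± 8.14 CPM (SD, n = 6 each). The log2 difference was -0.40 (SE 0.19, 95% interval -0.81 to 0.02), with an unadjusted p of 0.0603 and an edgeR adjusted p of 0.235.

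Sesn3 (ENSMUSG00000032009, chromosome 9), a sestrin known as a FoxO target, was the least abundant of the family. Its wildtype levels were 5.05 CPM in 1A, 6.66 in 1B, 8.67 in 1C, 4.72 in 2D, 9.41 in 2E and 8.55 in 2F. Its knockout levels were 8.10 CPM in 3G, 5.65 in 3H, 5.27 in 3I, 9.21 in 4J, 9.14 in 4K and 5.58 in 4L. Both genotypes held low and high clones over the same range. The means were 7.18 ± 2.00 and 7.16 ± 1.86 CPM (SD, n = 6 each), and the interval of the log2 difference ran from -0.48 to 0.47 (edgeR adjusted p = 0.995). Sesn3 had 109 to 255 counts per clone. Its SE of 0.22 was larger than that of Tfeb (152 to 231 counts, SE 0.10) and close to that of Rragb (69 to 244 counts, SE 0.24). The parts of depth and of the spread between clones in the interval were not tested.

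Set per kilobase of exon, so that the genes can be compared with one another, the 3 sestrins had different shares in the 2 genotypes. The Sesn2 share of the summed sestrin level was 34.4% to 67.2% in wildtype clones (median 52.0%) and 76.8% to 84.4% in knockout clones (median 78.3%). The summed level itself was 22.6 to 31.2 CPM per kilobase in wildtype and 45.0 to 56.4 in knockout clones. The Sesn1 share was 31.7% to 63.2% in wildtype and 14.9% to 21.9% in knockout clones, and the Sesn3 share was at most 2.38% in any clone. No range of the sum or of the Sesn2 or Sesn1 share overlapped between genotypes. Mean Sesn2 went from 13.8 to 39.3 CPM per kilobase and mean Sesn1 from 12.7 to 9.66, while the mean sum went from 27.0 to 49.4. These are shares of one sum. They describe again the difference of Sesn2 and that of Sesn1, which was not called, and were given no test.

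**Figure D2:**
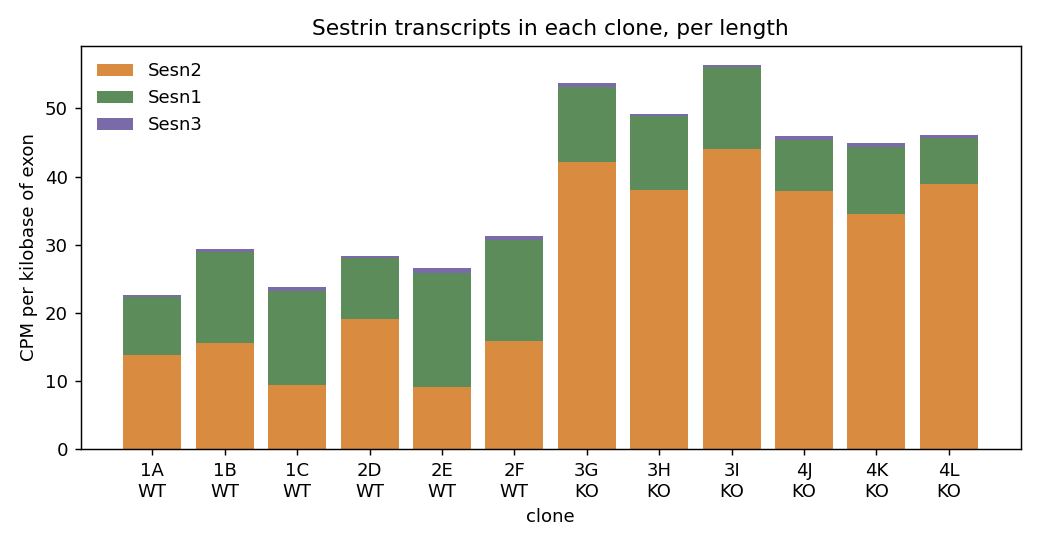
Stacked level of Sesn2, Sesn1 and Sesn3 in each clone, in CPM per kilobase of exon on a linear axis from 0; the 6 wildtype (WT) clones are on the left and the 6 knockout (KO) clones on the right. The orange Sesn2 segment is the one that is taller in every knockout clone, and summed levels run from 22.6 to 31.2 in wildtype and from 45.0 to 56.4 in knockout clones.

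Ddit4 (ENSMUSG00000020108, chromosome 10) is the stress-induced gene for REDD1. Its wildtype levels were 16.2 CPM in 1A, 16.7 in 1B, 14.5 in 1C, 20.2 in 2D, 20.2 in 2E and 21.9 in 2F. Its knockout levels were 26.2 CPM in 3G, 23.4 in 3H, 31.0 in 3I, 21.5 in 4J, 27.1 in 4K and 31.4 in 4L. The groups touched: 5 of 6 knockout clones were above the highest wildtype clone, and 4J lay just under it. Ddit4 rose from 18.3 ± 2.89 to 26.8 ± 3.95 CPM (SD, n = 6 each), or 1.47-fold, with a log2 change of 0.55 (SE 0.12, 95% interval 0.28 to 0.82, edgeR adjusted p = 0.0191). The call was lost when the counts of clones with the same title number were summed to 2 wildtype and 2 knockout values, where the log2 change was 0.55 with an edgeR adjusted p of 0.125.

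The windows just upstream of Sesn2 and Ddit4 are shown because both genes were called higher. Each is the 250 bases before the gene start in RefSeq (GRCm38.p6, a later build than the mm9 of the counts), written 5′ to 3′ on the strand of the gene. Capitals mark the only match to a searched motif, ACGTG, the core of the hypoxia response element. The Sesn2 window is chr4:132510457-132510706 and the Ddit4 window chr10:59951771-59952020, both on the minus strand.
Sesn2: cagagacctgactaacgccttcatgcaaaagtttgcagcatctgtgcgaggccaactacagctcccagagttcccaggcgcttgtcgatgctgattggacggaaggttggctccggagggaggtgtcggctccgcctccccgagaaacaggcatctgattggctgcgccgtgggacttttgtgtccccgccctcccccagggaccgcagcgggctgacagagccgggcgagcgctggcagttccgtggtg
Ddit4: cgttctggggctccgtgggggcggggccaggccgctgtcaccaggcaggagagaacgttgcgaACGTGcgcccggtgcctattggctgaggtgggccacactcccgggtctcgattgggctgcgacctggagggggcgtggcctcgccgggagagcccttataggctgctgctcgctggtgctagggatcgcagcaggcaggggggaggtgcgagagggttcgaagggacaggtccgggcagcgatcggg
The match in Ddit4 lay 187 bases before the gene start, and the Sesn2 window held none.

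Windows were found for 9 of the 10 genes, all but Eif4ebp1, and 5 motifs were searched on both strands: TGATGNAA (the composite site of C/EBP and ATF factors), TCACGTGA (the CLEAR element of TFEB), CACGTG (the E-box, which TCACGTGA contains), ACGTG (which both of these contain) and TGTTTAC (a forkhead core). Of 32851 windows of this length, 3.45% held TGATGNAA, 0.785% TCACGTGA, 6.02% CACGTG, 16.6% ACGTG and 3.17% TGTTTAC. Within the set, ACGTG was the only motif with a match, in Ddit4, Eif4ebp2 and Rptor. Of these 3 genes, Ddit4 alone was called. A match in a window of this kind is a run of letters, and its absence says only that the letters are not there.

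Eif4ebp1 (ENSMUSG00000031490, chromosome 8) encodes 4E-BP1, the translational repressor that binds eIF4E. Wildtype levels were 107.9 CPM in 1A, 98.1 in 1B, 86.6 in 1C, 129.0 in 2D, 82.8 in 2E and 99.1 in 2F. Knockout levels were 147.9 CPM in 3G, 149.0 in 3H, 166.5 in 3I, 149.7 in 4J, 129.3 in 4K and 145.8 in 4L. The groups did not overlap, though wildtype clone 2D and knockout clone 4K were almost level. Eif4ebp1 rose from 100.6 ± 16.6 to 148.0 ± 11.8 CPM (SD, n = 6 each), or 1.47-fold, with a log2 change of 0.56 (SE 0.10, 95% interval 0.34 to 0.77, edgeR adjusted p = 0.00652). Eif4ebp1 and Sesn2 were the 2 of 9 tested genes whose groups did not overlap, beside 5.38% of all tested genes in either direction and 2.54% in the higher direction.

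Eif4ebp2 (ENSMUSG00000020091, chromosome 10) encodes the paralog 4E-BP2. In wildtype clones it was at 195.4 CPM in 1A, 175.8 in 1B, 184.3 in 1C, 196.5 in 2D, 161.7 in 2E and 180.5 in 2F, and knockout clones ran from 170.8 CPM in 4K to 183.5 in 4J. All knockout clones lay inside the wildtype range. The log2 difference was -0.02 (SE 0.05, 95% interval -0.12 to 0.08, edgeR adjusted p = 0.814). Per kilobase of exon, Eif4ebp1 was 1.24 to 1.73 times the level of Eif4ebp2 in wildtype and 1.99 to 2.46 times in knockout clones. Against Eif4e, the gene for the cap-binding factor that both repressors bind, the Eif4ebp1 level per kilobase was 1.99 to 2.47 times in wildtype and 3.02 to 3.80 times in knockout clones. Eif4e itself had a log2 difference of -0.01 (edgeR adjusted p = 0.96).

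Of the Rag and folliculin genes, Rragd (ENSMUSG00000028278, chromosome 4) was close to absent. It had 0, 0, 1, 0, 3 and 0 counts in wildtype clones 1A to 2F and 11, 2, 1, 0, 1 and 0 counts in knockout clones 3G to 4L. The 11 counts in 3G, 0.578 CPM, were the only value above the floor of 3 counts, and 3G is also the clone with the hepatocyte transcripts. Their part in the Rragd value was not tested, and no fold is given because both groups lie about the floor. Flcn (ENSMUSG00000032633, chromosome 11) was at 54.8 CPM in 1A, 57.8 in 1B, 61.1 in 1C, 54.6 in 2D, 66.3 in 2E and 55.9 in 2F. In knockout clones it was at 66.2 CPM in 3G, 56.8 in 3H, 60.2 in 3I, 53.7 in 4J, 63.3 in 4K and 54.1 in 4L, nearly the range of the wildtype clones. The interval of its log2 difference was -0.13 to 0.16 (edgeR adjusted p = 0.919).

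The kinase gene Mtor (ENSMUSG00000028991, chromosome 4) had the narrowest interval of the 9 tested genes. Its level in wildtype clones was 115.5 CPM in 1A, 110.1 in 1B, 112.9 in 1C, 112.2 in 2D, 105.1 in 2E and 103.6 in 2F. In knockout clones it was 100.3 CPM in 3G, 107.5 in 3H, 113.4 in 3I, 103.4 in 4J, 110.4 in 4K and 102.3 in 4L, so the ranges overlapped over most of their length. The means were 109.9 ± 4.68 and 106.2 ± 5.09 CPM (SD, n = 6 each), with a log2 difference of -0.05 (95% interval -0.13 to 0.04, edgeR adjusted p = 0.49). Rptor (ENSMUSG00000025583, chromosome 11) was at 105.6 CPM in 1A, 112.1 in 1B, 116.3 in 1C, 114.6 in 2D, 127.2 in 2E and 112.5 in 2F. In knockout clones it was at 118.4 CPM in 3G, 124.3 in 3H, 127.8 in 3I, 119.2 in 4J, 143.1 in 4K and 114.6 in 4L, a little higher on average but overlapping. Its log2 difference was 0.12 (SE 0.06, 95% interval -0.01 to 0.24), with an unadjusted p of 0.0607 and an edgeR adjusted p of 0.235. Rptor shares 84 exon bases with the antisense gene Rptoros in GENCODE M21, and reads were counted without strand, so the 2 cannot be told apart there.

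**Figure D3:**
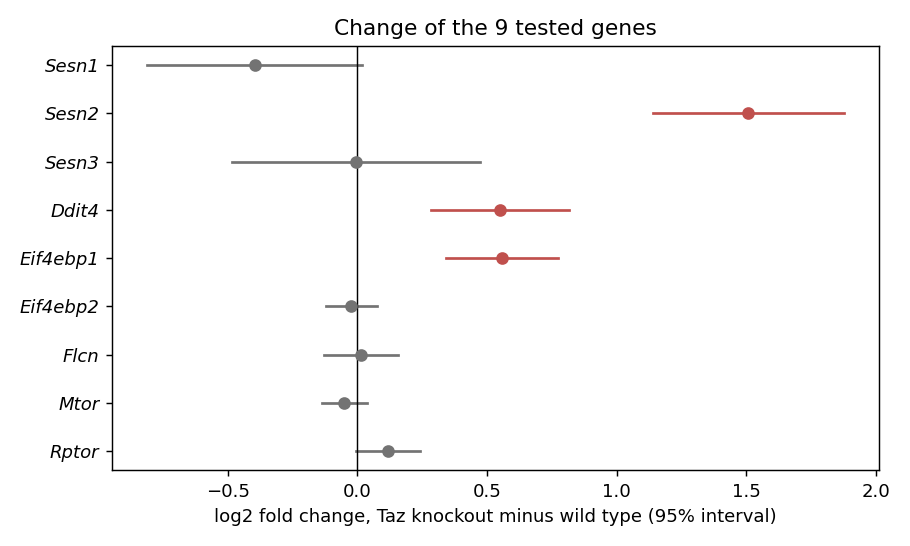
Log2 fold change of the 9 tested genes, knockout minus wildtype, with 95% intervals from the edgeR fit; the 3 called genes are red and the other 6 grey. The intervals of Sesn2, Ddit4 and Eif4ebp1 lie above 0, that of Mtor is the narrowest (-0.13 to 0.04), and those of Sesn1 and Sesn3 are the widest of the genes that were not called.

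Per kilobase of exon, the order of the levels in wildtype clones was Eif4ebp1 (45.8 ± 7.57 CPM per kilobase, SD, n = 6), Eif4ebp2 (31.5 ± 2.25), Sesn2 (13.8 ± 3.92), Flcn (13.5 ± 1.05), Sesn1 (12.7 ± 3.29), Mtor (10.9 ± 0.461), Ddit4 (10.4 ± 1.64), Rptor (8.52 ± 0.528), Sesn3 (0.470 ± 0.131) and Rragd. The 6 genes from Sesn2 to Rptor overlapped each with its neighbour, while the 2 repressors stood above them and Sesn3 and Rragd below. In knockout clones Sesn2 came second at 39.3 ± 3.37 CPM per kilobase (SD, n = 6), between Eif4ebp1 at 67.4 ± 5.39 and Eif4ebp2 at 31.0 ± 0.809. It overlapped neither of them, and it no longer shared the range of Flcn and Sesn1. Ddit4 came next at 15.3 ± 2.25 and overlapped Flcn at 13.7 ± 1.18. Mtor (10.5 ± 0.502), Sesn1 (9.66 ± 2.04) and Rptor (9.25 ± 0.757) overlapped each with its neighbour, and Sesn3 (0.469 ± 0.122) and Rragd were again last. Exon lengths were unions over GENCODE M21 transcripts, so a gene with long transcripts that these cells do not use is set too low.

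The 6 wildtype clones differed among themselves, and 4 genes of the set are set here beside Atf4, the gene for a stress-responsive transcription factor. These 4 were chosen after their values were seen. Atf4 ran from 312.3 CPM in 2E and 324.1 in 1C through 366.3 in 2F, 381.3 in 1B and 474.5 in 1A to 596.1 in 2D. Sesn2 and Eif4ebp1 were lowest in 2E and 1C and highest in 2D. In 1A, the clone next below 2D in Atf4, Eif4ebp1 was also next below 2D. Sesn2 in 1A (47.9 CPM) was below its levels in 1B (54.3) and 2F (55.2). Sesn1 and Sesn3 took the other order, with their 2 lowest wildtype values in 1A and 2D and their highest in 2E. These orders were not particular to the 4 genes. Flcn also had its 2 lowest wildtype values in 2D and 1A and its highest in 2E, and Rptor was lowest in 1A and highest in 2E. Eif4ebp2 was lowest in 2E and highest in 2D. Ddit4 followed neither order and was lowest in 1C and highest in 2F, and Mtor was lowest in 2F and highest in 1A. Clones 1A and 2D also stood apart in marker sums. Monocyte markers summed to 580.6 CPM in 1A and 552.1 in 2D against 1004 to 1186 in the other wildtype clones, and mast cell and basophil markers to 1579 and 1183 against 2700 to 4259 CPM. Most of the monocyte sum was Ccr2 (361.6 and 390.6 against 890.2 to 1079 CPM). Ly6c2 (179.2 and 138.9 against 4.80 to 52.4 CPM) and Csf1r (2.99 and 3.21 against 0.332 to 1.42 CPM) went the other way. Most of the mast cell and basophil sum was Cpa3 (1011 and 858.3 against 2085 to 3050 CPM), while Prss34 was highest in 1A (251.5 CPM) and lowest in 2D (67.1 CPM). Erythroid markers were highest in 1A (73.2 CPM, at most 36.6 elsewhere) and mature neutrophil markers in 2D (1550 CPM, 115.2 in 1A and at most 74.5 in the other wildtype clones). The part of these transcripts in the order was not tested. With 6 clones that share a genotype and, in 2 sets of 3, a title number, the order is given as a description.

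**Figure D4:**
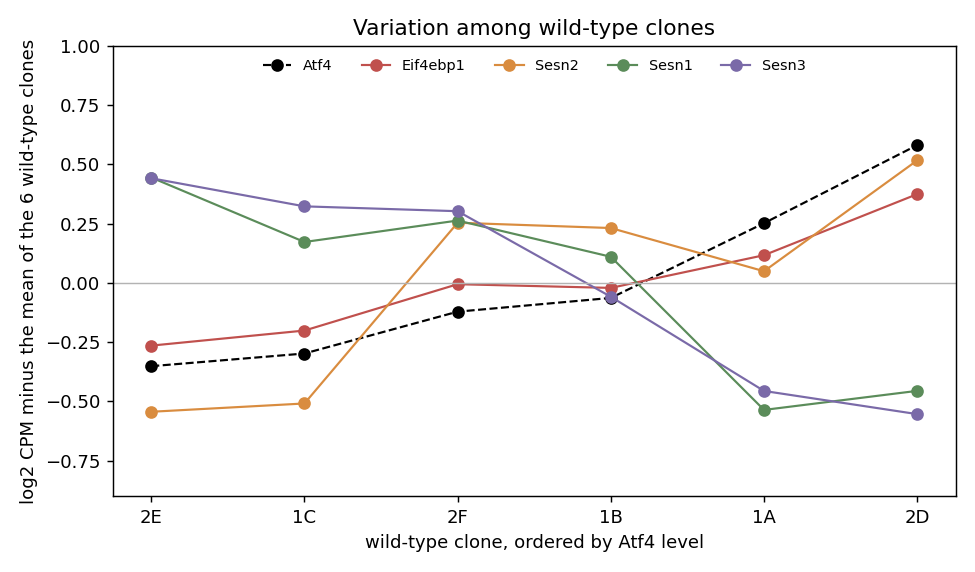
Level of Atf4, Eif4ebp1, Sesn2, Sesn1 and Sesn3 in the 6 wildtype clones, as log2 CPM minus the mean of the 6, with clones placed from the lowest to the highest Atf4 level; lines join the values of one gene. Eif4ebp1 and Sesn2 are low on the left and high at 2D, and Sesn1 and Sesn3 are high on the left and low at 1A and 2D.

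Clones were also compared by title number, in a model of 4 groups of 3 clones. Within a genotype, no gene of the set was called between numbers, and neither was any of the 11819 genes. At an unadjusted p under 0.05 there were 416 genes (3.52%) between numbers 2 and 1 and 244 (2.06%) between numbers 4 and 3. Ddit4 was the 1 gene of the set among the former, at a log2 difference of 0.39 (SE 0.14, unadjusted p = 0.0204, edgeR adjusted p = 1.00), and none of the set was among the latter. Between genotypes, Sesn2 was higher in all 4 pairs of numbers, by 1.68 (3 minus 1), 1.497 (3 minus 2), 1.52 (4 minus 1) and 1.34 (4 minus 2) on the log2 scale. The edgeR adjusted p was 0.0155, 0.0332, 0.0322 and 0.0717, so 3 of 4 pairs were called, beside 1.57%, 0.719%, 0.508% and 0.262% of all genes. Ddit4 differed by 0.77, 0.37, 0.76 and 0.36 in the same order, and was called in the first pair alone (edgeR adjusted p = 0.0342). Its values against number 1 were larger than those against number 2. Eif4ebp1 differed by 0.66, 0.58, 0.54 and 0.45 and was called in none, with unadjusted p-values of 0.00111 to 0.0116 and a lowest edgeR adjusted p of 0.0551. Sesn1 differed by -0.08, -0.26, -0.56 and -0.74 and was called in none, with unadjusted p-values under 0.05 in the last 2 pairs (0.0476 and 0.0135). Of all tested genes, 16.5%, 14.3%, 12.6% and 12.4% had an unadjusted p under 0.05 in the 4 pairs, in the same order. These 4 comparisons share libraries and have 3 clones a side.

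Candidates were tested genes with a symbol at a mean log2 CPM of at least 2, without predicted and Rik genes and without the genes of the set. Those whose profile over the 12 clones lay closest to each called gene were found by the mean absolute difference of centred log2 CPM. Closest to Sesn2 were Pycr1 (0.11), Slc1a4 (0.13) and Pde4dip (0.19), where Sesn2 itself deviated from its own mean by 0.78 on average. Closest to Eif4ebp1 were Slc1a5 (0.04), Clic4 (0.05) and Aldh18a1 (0.05), against an average deviation of 0.30. Closest to Ddit4 were Cd53 (0.13), Kdm6b (0.14) and Sars (0.14), against 0.28, so the likeness was loosest there. There were 9316 candidates for each, and the genotype difference enters this measure.

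Around the set, 82 other genes of the pathway in 9 lists were tested, and 2 were called higher and 3 lower, beside 3.99% and 3.94% of all tested genes. Their median log2 fold change was 0.00, against -0.01 over all genes, and 13 of 82 (15.9%) had an unadjusted p under 0.05, below the 23.7% of all tested genes (2806 of 11819) at that threshold. None of the 9 tested mTORC subunit and assembly genes was called, and Mlst8, the shared subunit of both complexes, was nearest at 0.17 (edgeR adjusted p = 0.0553). It was the 1 gene of the list with an unadjusted p under 0.05, and DESeq2 called it, at an adjusted p of 0.0211. Of the 7 GATOR2 and nutrient sensor genes none was called, by edgeR or DESeq2. The 1 gene of this list with an unadjusted p under 0.05 was Sar1b, a GTPase known also as a leucine sensor, at -0.14 (edgeR adjusted p = 0.14).

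Of 6 GATOR1 and KICSTOR genes, Depdc5, the GATOR1 subunit that contacts the Rags, was lower. It went from 57.4 ± 2.87 to 49.4 ± 2.79 CPM (SD, n = 6 each), a log2 change of -0.22 (SE 0.05, edgeR adjusted p = 0.0173). Its partner Nprl2 had -0.21 (edgeR adjusted p = 0.106) and Nprl3 had 0.16 (0.233), so the 3 subunits did not share a direction. In this list 3 of 6 genes (50%) had an unadjusted p under 0.05, beside 23.7% of all tested genes. They were Depdc5, Nprl2 and the KICSTOR gene Itfg2, at 0.13 (edgeR adjusted p = 0.165). Of 11 Rag, Ragulator and folliculin partner genes, Lamtor5, a Ragulator subunit, was lower at 25.04 ± 1.505 against 28.8 ± 0.795 CPM (SD, n = 6 each), a log2 change of -0.20 (SE 0.05, edgeR adjusted p = 0.0239). Rragc, the paralog of Rragd, was at 108.4 CPM in wildtype and 110 CPM in knockout clones, with a log2 difference of 0.02 (edgeR adjusted p = 0.796). The folliculin partners Fnip1 and Fnip2 had log2 differences of 0.02 and 0.00, with edgeR adjusted p-values of 0.894 and 0.998, and the sign of each turned under other settings.

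On the arm through which REDD1 acts, none of 5 tested genes of the TSC complex and Rheb was called, and 2 (Tbc1d7 and Rheb) were at an unadjusted p under 0.05, as were 23.7% of all tested genes. Tsc1 had a log2 difference of -0.13 (edgeR adjusted p = 0.348), Tsc2 of -0.11 (0.357), Tbc1d7 of -0.20 (0.11) and Rheb of 0.10 (0.0868). DESeq2 called Rheb, at an adjusted p of 0.0396. None of 8 AMPK and LKB1 genes was called by either tool, 0 had an unadjusted p under 0.05, and the lowest edgeR adjusted p among them was 0.352. None of 9 PI3K and AKT genes was called, with Pik3cd, the leukocyte PI3K catalytic subunit, at -0.37 (edgeR adjusted p = 0.0844). DESeq2 called Pik3cd, at an adjusted p of 0.0311.

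Of 13 mTORC1 effectors, Rps6kb2, the gene for S6 kinase 2, was lower. It went from 21.9 ± 1.79 to 18.1 ± 0.907 CPM (SD, n = 6 each), a log2 change of -0.28 (SE 0.06, edgeR adjusted p = 0.0197). Rps6kb1, the gene for S6 kinase 1, had -0.11 (edgeR adjusted p = 0.352) and the autophagy kinase gene Ulk1 had -0.12 (0.563). The calls of Depdc5, Lamtor5 and Rps6kb2 were all lost with clones 2D and 3G left out, at edgeR adjusted p-values of 0.0569, 0.0571 and 0.0714. With clones summed by title number these were 0.141, 0.125 and 0.132. The Lamtor5 call was also lost with no filter on low counts (edgeR adjusted p = 0.0608) and on leaving out any 1 of 5 clones (2F, 3G, 3I, 4K or 4L, at up to 0.0575). The Rps6kb2 call was lost on leaving out 3G (edgeR adjusted p = 0.0512) or 3H (0.0507). The direction of all 3 genes held in every fit run.

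Among 14 genes for transcription regulators known for genes of the set, Atf4 and Ddit3 were higher. ATF4 is known to act on Sesn2, Ddit4 and Eif4ebp1, and Ddit3 encodes CHOP, which ATF4 induces. Atf4 had 577.4 CPM in 3G, 628.1 in 3H, 633.3 in 3I, 639.4 in 4J, 516.1 in 4K and 651.9 in 4L, against the wildtype values above, of which 2D alone reached into that range. Its log2 change was 0.57 (SE 0.15, edgeR adjusted p = 0.0344), and the call was lost on leaving out any 1 of 9 clones (1B, 1C, 2E, 2F, 3G, 3H, 3I, 4J or 4L), at adjusted p-values of up to 0.0735. It was also lost with no filter on low counts, where the log2 change was 0.56 (edgeR adjusted p = 0.0555). Ddit3 rose from 9.67 ± 1.97 to 24.7 ± 3.16 CPM (SD, n = 6 each), a log2 change of 1.35 (SE 0.13, edgeR adjusted p = 0.000336), with no overlap. Trp53, the p53 gene, had a log2 difference of 0.02 (edgeR adjusted p = 0.789). Tfeb and Tfe3, lysosomal regulators that control Rragd and Flcn, had 0.20 (0.279) and 0.09 (0.383). Of the FoxO genes, Foxo4 had -0.23 (0.139), Foxo1 0.48 (0.476) and Foxo3 0.14 (0.49), so they did not share a direction.

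**Figure D5:**
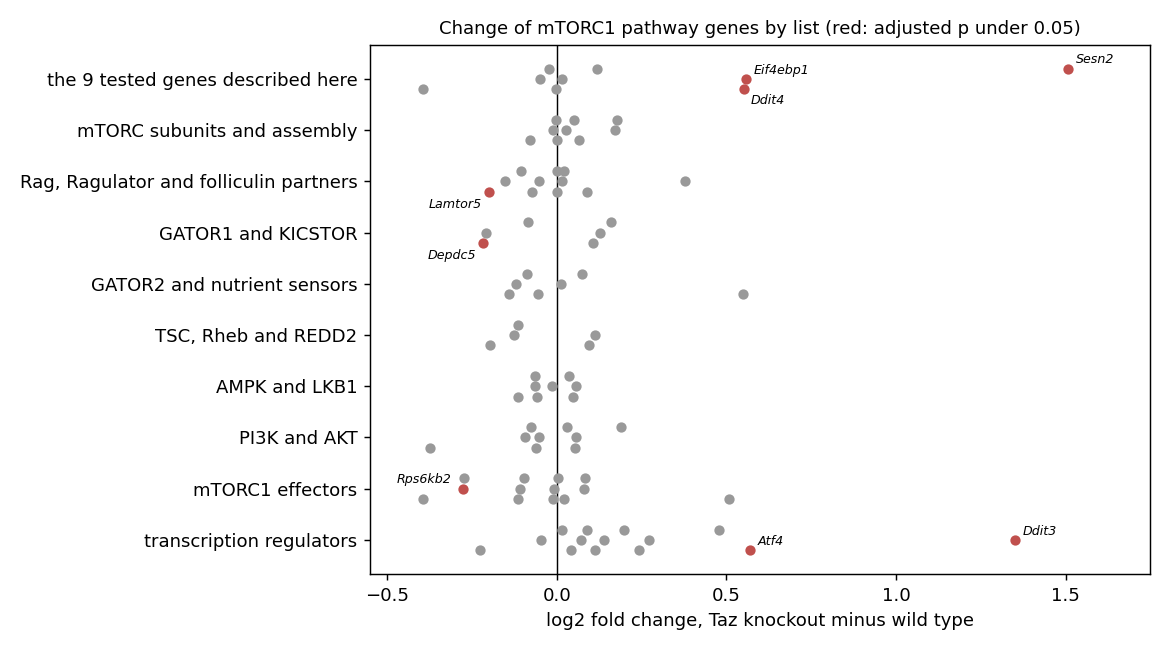
Log2 fold change, knockout minus wildtype, of the 9 tested genes of the set and of 82 other pathway genes, 1 point a gene, in rows by list; called genes are red and named. Most points of every list lie near 0, and Sesn2 at 1.51 and Ddit3 at 1.35 stand farthest to the right.

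Leaving out any 1 of the 12 clones kept all 3 calls of the set. Sesn2 then ranged from 1.41 to 1.62, Ddit4 from 0.50 to 0.61 and Eif4ebp1 from 0.50 to 0.64 on the log2 scale. The highest edgeR adjusted p in these fits was 0.00199 for Sesn2 and 0.01945 for Eif4ebp1. For Ddit4 it was 0.0473, just under the threshold. Without 2D and 3G together the log2 changes were 1.60, 0.59 and 0.64, with edgeR adjusted p-values of 0.000974, 0.0398 and 0.00291, and Sesn1 stood at -0.52 (edgeR adjusted p = 0.161).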

How the data were processed

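RNA was sequenced from 12 clones, 6 wildtype and 6 Taz knockout, grouped by the genotype label. The authors deposited raw counts of reads per Ensembl gene; per the submitters' processing notes STAR, HTSeq, edgeR and mm9 were used, with versions and annotation release not given in the sources used here, and file names state counting without strand. The 5 HTSeq total lines were left out; 42.8% to 44.9% of records had aligned to more than 1 place, so reads shared by near-identical genes are mostly missing. Symbols came from a gene name table and GENCODE M21 (32860 of 37583 identifiers matched). No 2 libraries of the same genotype agreed within sampling noise (lowest chi-square per gene 14.2).

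In R 4.3.3, edgeR 4.0.16 was run with TMM scaling, filterByExpr by genotype and the quasi-likelihood test; SE is the log2 change over the root of F. Alternatives were DESeq2 size factors (RLE) in edgeR, no filter, DESeq2 1.42.0, limma-voom (limma 3.58.1), leaving out each clone, and counts summed by title number. Nothing says that clones came from separate embryos, so p-values measure the spread between clones.

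The genes of the set and all lists were chosen with earlier results of these data known. Named were all 10 genes, Taz, every called pathway gene and others from up to 4 per list with the smallest adjusted p, preset pathway genes whatever their values, and the 3 nearest profiles for each called gene of the set. Foxo1 and Foxo3 were added beside Foxo4. Of 90 pathway genes 88 were matched.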

Additional observations from a re-analysis of the deposited data

Results flagged for a closer look

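Of 20 groups of 6 clones (10 genes in each genotype) 1 held a clone far from the others: Rragd in knockout clone 3G, at 0.578 CPM or 11 counts, with the next clone at 0.102 CPM. Chance gives such a clone in about 1 group in 20 where values are normally distributed. That rate does not carry over to Rragd, whose counts lie about the floor.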

How the results depend on the processing

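Sesn2 and Eif4ebp1 kept their direction and call under each alternative run, and Ddit4 under each but the sum by title number (0.55, adjusted p 0.125); no gene of the set was called lower under any. Genes called higher and lower numbered 472 and 466, against 271 and 280 with no filter, 801 and 830 by DESeq2, 158 and 116 with counts summed by title number (fewer samples), and 294 to 558 and 272 to 535 on leaving out 1 clone. Leaving out 1B gave 303 and 305, 3I 294 and 276, 3G 330 and 272, and 3H 340 and 308. Pathway genes called higher numbered 1 with no filter, 4 by DESeq2 and 1 to 5 on leaving out 1 clone (5 without 2D). Those called lower numbered 0 in the sum, 0 without clones 2D and 3G (an alternative chosen after seeing the data), and 1 to 5 on leaving out 1 clone (1 without 3G, 5 without 1C). Log2 differences near 0 changed sign. Sesn3 was 0.0087 by limma-voom, 7.021e-05 in the sum and -0.0946 to 0.0863 on leaving out 1 clone, and Eif4ebp2 was -0.0586 to 0.0025. Flcn was -0.0376 without 2D and 3G and -0.0183 to 0.0513 on leaving out 1 clone. Likewise Eif4e was 0.0668 and -0.0328 to 0.0555, Fnip1 -0.0273 and -0.0085 to 0.0421. Fnip2 was 0.0015 by RLE, 0.0097 by limma-voom, 0.0069 in the sum, 0.0413 without 2D and 3G and -0.0393 to 0.0776 on leaving out 1 clone. Without 2D and 3G, Rragc was -0.00099 and Trp53 -0.00058. The cause was not tested. Rragd had too few counts at this depth to pass the filter, so it was not among the genes tested.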
